A study of Mus musculus with 4 samples.

Results

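The 9 genes described here are 8 chemokine receptors of T cells, Ccr2, Ccr4, Ccr7, Ccr8, Ccr9, Cxcr3, Cxcr4 and Cxcr6, and the chemokine gene Ccl5. They were taken by gene symbol from 22477 symbols in the expression files of 4 RNA sequencing libraries, and all 9 were listed in every file. The receptors Cxcr5 and Ccr6 are not members and appear only where a result needs them. The libraries came from spleens on a C57BL/6 background, with 1 library per group. Invariant natural killer T (iNKT) cells, a T cell lineage that recognises lipids presented by CD1d, came from Ezh2fl/fl CD4-Cre mice (KO iNKT) and from WT mice (WT iNKT). CD44-high CD4+ T cells (CD44hi), the antigen-experienced part of the CD4+ T cells, came from Ezh2fl/fl CD4-Cre mice (KO CD44hi) and from WT mice (WT CD44hi). The KO mice carry floxed Ezh2 alleles and a Cre recombinase driven from the Cd4 gene, which is switched on in developing thymocytes that also give rise to iNKT cells. The labels give no age, sex or number of animals, do not say whether animals were pooled, and do not say whether WT mice carried Cre or floxed alleles. Whether the CD44hi sort left out cells that bind the CD1d tetramer is not stated either.

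Chemokine receptors are G protein coupled receptors of the cell surface that steer migrating leukocytes along gradients of small secreted proteins, the chemokines. Which receptors a T cell carries sets whether it stays in the spleen, enters lymph nodes, or moves to liver, gut or inflamed tissue, and effector and memory cells exchange receptors of lymphoid homing for receptors of inflamed tissue. iNKT cells are known for CXCR6, which holds them in the liver sinusoids in mice. Ezh2 encodes the histone methyltransferase of Polycomb repressive complex 2, whose mark on histone H3 (H3K27me3) accompanies gene silencing.

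In mouse genome build GRCm38.p6, with RefSeq positions, 5 of the 8 receptor genes lie on chromosome 9. Ccr9 (chr9:123767211-123783457), Cxcr6 (chr9:123806477-123811754) and Ccr2 (chr9:124101918-124109140) stand on the plus strand in 1 receptor gene cluster. Ccr4 (chr9:114490316-114505476, minus strand) and Ccr8 (chr9:120092133-120094906, plus strand) lie farther away on the same chromosome. Cxcr3 is on the X chromosome (chrX:101731535-101734147), Cxcr4 on chromosome 1 (chr1:128588199-128592299), and Ccr7 (chr11:99144199-99155077) and Ccl5 (chr11:83525778-83530518) on chromosome 11, these 4 on the minus strand. All 9 are protein-coding. Promoter windows from 250 bases before to 50 bases after a RefSeq start site matched 7 of the 9 members, and Ccr7 and Ccl5 had no entry. The windows of Ccr4 and Ccr2 lie wholly inside the gene spans given above. Their start sites are therefore downstream of the 5′ ends of those spans, and sequence at these ends was not searched. The 3 windows of the chromosome 9 cluster are printed because all 3 genes were lower in KO iNKT than in WT iNKT, and that of Ccr4 because it was higher. Each is written 5′ to 3′ on the strand of its gene, with matches to 4 short motifs in capitals.
Cxcr6 (chr9:123806227-123806526, plus strand): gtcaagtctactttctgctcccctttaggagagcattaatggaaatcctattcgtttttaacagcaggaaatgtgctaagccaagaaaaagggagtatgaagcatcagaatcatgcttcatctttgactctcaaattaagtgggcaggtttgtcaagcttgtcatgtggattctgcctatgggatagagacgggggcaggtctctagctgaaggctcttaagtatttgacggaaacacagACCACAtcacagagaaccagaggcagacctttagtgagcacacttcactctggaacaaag
Ccr9 (chr9:123766961-123767260, plus strand): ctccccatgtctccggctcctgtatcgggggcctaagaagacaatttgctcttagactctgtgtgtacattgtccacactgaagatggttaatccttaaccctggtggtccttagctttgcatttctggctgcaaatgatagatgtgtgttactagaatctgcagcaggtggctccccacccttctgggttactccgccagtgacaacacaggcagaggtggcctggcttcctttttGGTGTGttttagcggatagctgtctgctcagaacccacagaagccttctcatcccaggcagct
Ccr2 (chr9:124101933-124102232, plus strand): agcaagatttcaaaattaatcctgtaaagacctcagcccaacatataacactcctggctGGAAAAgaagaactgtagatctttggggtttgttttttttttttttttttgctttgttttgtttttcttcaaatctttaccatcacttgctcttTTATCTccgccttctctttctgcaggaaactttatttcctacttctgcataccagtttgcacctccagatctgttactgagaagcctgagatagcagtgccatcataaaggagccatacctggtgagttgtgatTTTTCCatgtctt
Ccr4 (chr9:114496495-114496794, minus strand): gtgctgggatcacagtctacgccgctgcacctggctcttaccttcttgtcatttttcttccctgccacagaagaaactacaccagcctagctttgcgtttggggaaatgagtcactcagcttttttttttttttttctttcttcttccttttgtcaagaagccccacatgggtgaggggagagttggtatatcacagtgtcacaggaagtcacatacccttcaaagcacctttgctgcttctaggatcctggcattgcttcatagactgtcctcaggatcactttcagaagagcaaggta
The letters searched, on both strands, were GGTGTG for T-box factors, TGTGGT for RUNX factors, AGATAA for GATA factors and GGAAAA for NFAT. The T-box and RUNX letters can overlap in a longer run. Of all 32851 RefSeq windows of this length, 19.0% held the T-box letters, 16.8% the RUNX letters, 11.2% the GATA letters and 23.4% the NFAT letters.

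The Cxcr6 window held 1 RUNX match on the minus strand with its first base at -10 from the start site, written ACCACA in the line printed. The Ccr9 window held 1 T-box match at -13. The Ccr2 window held 1 GATA match at -97 and NFAT matches at -191 and at 38, counted from its start site inside the gene span. No match to any of the 4 motifs was found in the windows of Ccr4 and Cxcr4. Cxcr3 had 2 RUNX matches, at -110 and 12, and Ccr8 had 1 GATA match at -239. The windows were poor in CG dinucleotides except that of Cxcr4, which held 20, while the other 6 held 1 to 4 against a median of 7 over all windows. These matches describe letters in a window and show no binding.

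Expression is given in FPKM, a fragment count scaled to transcript length and library depth, as the authors deposited it. The steps between low FPKM values gave about 5230000 fragments for KO iNKT, 4840000 for WT iNKT, 23710000 for KO CD44hi and 17710000 for WT CD44hi. In a transcript of 2 kb, 1 fragment was then worth 0.0956 FPKM in KO iNKT and 0.103 FPKM in WT iNKT, against 0.0211 FPKM in KO CD44hi and 0.0282 FPKM in WT CD44hi. Folds are plain ratios of FPKM with 95% exact (Clopper-Pearson) intervals from these estimated fragments, which cover counting error only. Since each group is 1 library, differences could not be set against a replicate spread and no test was made. A gene counts as measured where either library of a comparison reached 1 FPKM. It counts as called where the difference in log2(FPKM + 1) amounted to 2-fold or more. All 8 T cell markers were at 1 FPKM or more in every library. Ezh2 was at 16.8 FPKM in KO iNKT and 15.3 FPKM in WT iNKT, and at 18.5 FPKM in KO CD44hi and 28.9 FPKM in WT CD44hi, so whole-gene values do not check the KO labels, since the floxed part was not read apart. The sum of 10 plasmacytoid dendritic cell markers was 120 FPKM in KO iNKT and 121 FPKM in WT iNKT, and 745 FPKM in KO CD44hi and 187 FPKM in WT CD44hi. Red cell markers summed to 17.8 FPKM in KO iNKT and 18.7 FPKM in WT iNKT, and to 733 FPKM in KO CD44hi and 152 FPKM in WT CD44hi. B cell markers summed to 1.72 FPKM in KO iNKT and 1.55 FPKM in WT iNKT, and to 90.8 FPKM in KO CD44hi and 61.3 FPKM in WT CD44hi.

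Ccl5 had the highest FPKM of the 9 members in all 4 libraries. It encodes the chemokine RANTES, made by effector and memory T cells and by NK cells. Its level was 204 FPKM in KO iNKT, 925 FPKM in WT iNKT, 383 FPKM in KO CD44hi and 306 FPKM in WT CD44hi. Among all genes by FPKM it was number 228 in KO iNKT and number 41 in WT iNKT, and number 124 in KO CD44hi and number 151 in WT CD44hi. Cxcr6 and Cxcr3 were the leading receptors in KO iNKT, at 94.6 and 89.9 FPKM. In WT iNKT Cxcr6 stood at 468 FPKM, ahead of Cxcr3 at 234 FPKM and Cxcr4 at 127 FPKM. In both CD44hi libraries Cxcr3 led the receptors, with 151 FPKM in KO CD44hi and 137 FPKM in WT CD44hi. Ccr8 was the lowest member in every library, between 0.813 and 6.67 FPKM.

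**Figure D1:**
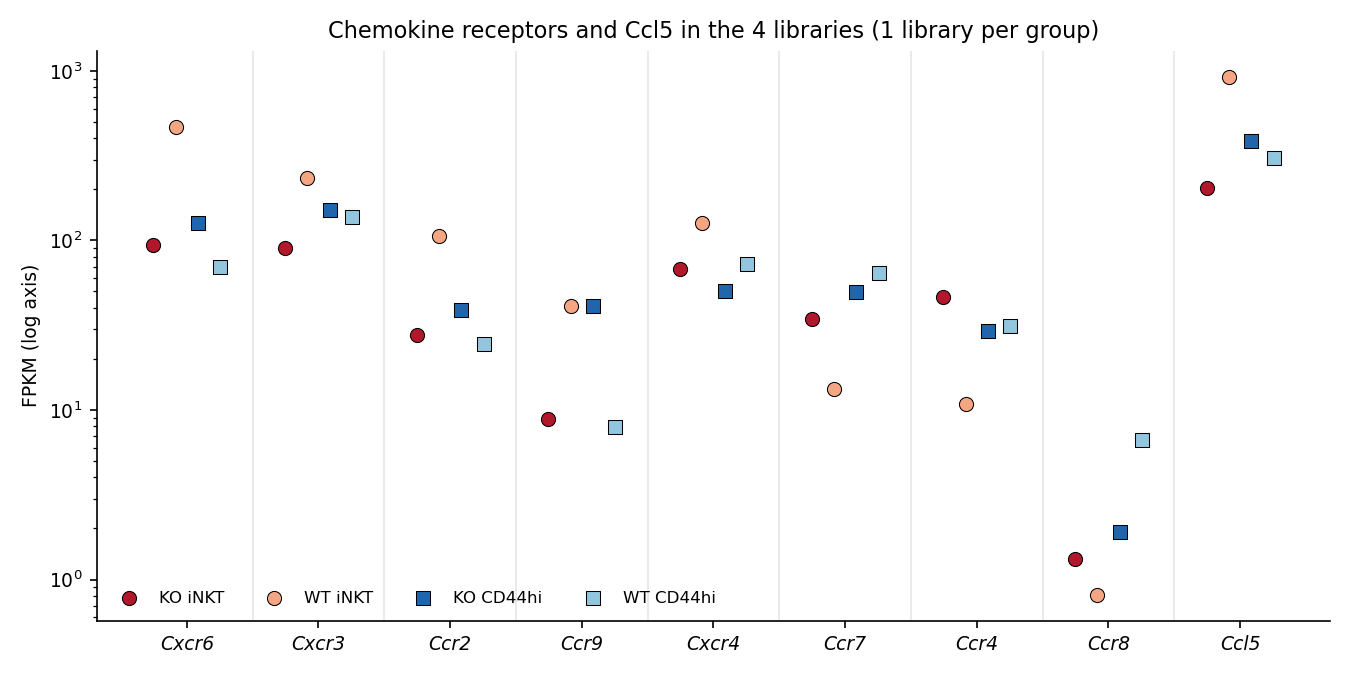
Level of each of the 9 members in the 4 libraries, as FPKM on a log axis, 1 point per library and no error bars because each group is 1 library. Ccl5 is the highest member in every library and Ccr8 the lowest, and the WT iNKT points of Cxcr6, Ccl5 and Ccr2 lie above the other 3 libraries.

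Between KO iNKT and WT iNKT, 5 members were called lower and 2 higher. Cxcr6, Ccr9, Ccl5, Ccr2 and Cxcr3 were 2.60-fold to 4.95-fold lower in KO iNKT, while Ccr4 was 4.28-fold and Ccr7 2.62-fold higher. Of the 10818 genes measured in this pair, 3.35% were called lower and 6.08% higher, so 9.43% were called in either direction, against 7 of 9 members. The median log2 difference was -1.37 over the members and 0.05 over all measured genes. The libraries are bulk sorts, in which fewer cells of a kind and less RNA per cell cannot be told apart.

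Cxcr6, the receptor of the transmembrane chemokine CXCL16, had 94.6 FPKM in KO iNKT and 468 FPKM in WT iNKT. It was 4.95-fold lower in KO iNKT (95% counting interval 4.61 to 5.32), a log2 difference of -2.29 and the largest among the members of this pair. The KO iNKT level lay between those of the CD44hi libraries, 127 FPKM in KO CD44hi and 69.6 FPKM in WT CD44hi. Ccr9, the receptor of the thymic and small intestinal chemokine CCL25, had 8.81 FPKM in KO iNKT and 41.0 FPKM in WT iNKT, 4.65-fold lower (4.04 to 5.38). Ccr2, the receptor of CCL2, which brings monocytes and effector T cells to inflamed tissue, had 27.8 FPKM in KO iNKT and 106 FPKM in WT iNKT, 3.81-fold lower (3.52 to 4.11). All 3 members in the chromosome 9 cluster were thus 3.81-fold to 4.95-fold lower in KO iNKT.

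Cxcr3, the receptor of the interferon-induced chemokines CXCL9 and CXCL10 and a mark of type 1 T cells, had 89.9 FPKM in KO iNKT and 234 FPKM in WT iNKT. It was 2.60-fold lower in KO iNKT (2.39 to 2.82). Cxcr4, the receptor of CXCL12 that retains cells in the bone marrow, had 67.9 FPKM in KO iNKT and 127 FPKM in WT iNKT, a 1.87-fold difference (1.70 to 2.07) on the same side that did not reach the call. Ccl5 was 4.54-fold lower in KO iNKT (4.18 to 4.93), with the levels given above.

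Ccr4 and Ccr7 went the other way. Ccr4, the receptor of CCL17 and CCL22, carried by type 2, regulatory and skin-homing T cells, had 46.2 FPKM in KO iNKT and 10.8 FPKM in WT iNKT, 4.28-fold higher (3.58 to 5.15). Its KO iNKT level was the highest of the 4 libraries. Ccr7, the receptor of CCL19 and CCL21 that brings naive and central memory T cells into lymph nodes, had 34.6 FPKM in KO iNKT and 13.2 FPKM in WT iNKT, 2.62-fold higher (2.13 to 3.23). The KO iNKT level stayed below 49.9 FPKM in KO CD44hi and 64.0 FPKM in WT CD44hi. Ccr8, a CCL1 receptor found on regulatory and type 2 T cells, had 1.32 FPKM in KO iNKT and 0.813 FPKM in WT iNKT. That ratio of 1.62 rested on about 8.09 and 4.63 fragments, and its counting interval of 0.467 to 6.29 does not fix a direction.

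Markers of other cells were compared beside these values. NK cells also express Ccl5, and 8 NK cell markers summed to 74.5 FPKM in KO iNKT and 226 FPKM in WT iNKT, with 2 of 7 measured called higher and 4 lower. Most of both sums was Klrd1, which iNKT cells also express and which was among the 4 called lower. The others called lower were Klre1, Prf1 and Gzmb, at 5.81, 1.45 and 0.443 FPKM in KO iNKT and at 25.7, 11.6 and 4.63 FPKM in WT iNKT. The 2 called higher were the NK factor Eomes, at 3.90 FPKM in KO iNKT and at 0 in WT iNKT, and Klra8, at 3.33 FPKM in KO iNKT and 1.09 FPKM in WT iNKT. The NK receptor gene Ncr1 was at 0.285 FPKM in KO iNKT and 0.154 FPKM in WT iNKT, too low to be measured. The 5 iNKT cell markers summed to 568 FPKM in KO iNKT and 1249 FPKM in WT iNKT, with 2 called higher and 2 lower. Il2rb was the largest part of both sums, at 198 FPKM in KO iNKT and 814 FPKM in WT iNKT. It was called lower, as was Plac8, at 60.1 FPKM in KO iNKT and 155 FPKM in WT iNKT. Those called higher were Zbtb16 and Slamf6, at 63.1 and 151 FPKM in KO iNKT and at 28.2 and 74.3 FPKM in WT iNKT. The 15 myeloid markers summed to 185 FPKM in KO iNKT and 301 FPKM in WT iNKT, with 0 of 9 measured called higher and 1 lower. Ly6c2 made up most of both sums, at 167 FPKM in KO iNKT and 275 FPKM in WT iNKT, the called marker was C1qc, at 0.421 FPKM in KO iNKT and 2.96 FPKM in WT iNKT, and Csf1r was at 0.634 FPKM in KO iNKT and 0.949 FPKM in WT iNKT. The 10 regulatory T cell markers summed to 121 FPKM in KO iNKT and 135 FPKM in WT iNKT, with 1 of 7 measured called higher and 1 lower. The higher one was Ikzf2, at 53.3 FPKM in KO iNKT and 15.6 FPKM in WT iNKT, and the lower one Il2ra, at 5.05 FPKM in KO iNKT and 23.7 FPKM in WT iNKT. Foxp3 was at 0.115 FPKM in KO iNKT and 0.446 FPKM in WT iNKT. The part of these cells in the member differences was not tested.

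**Figure D2:**
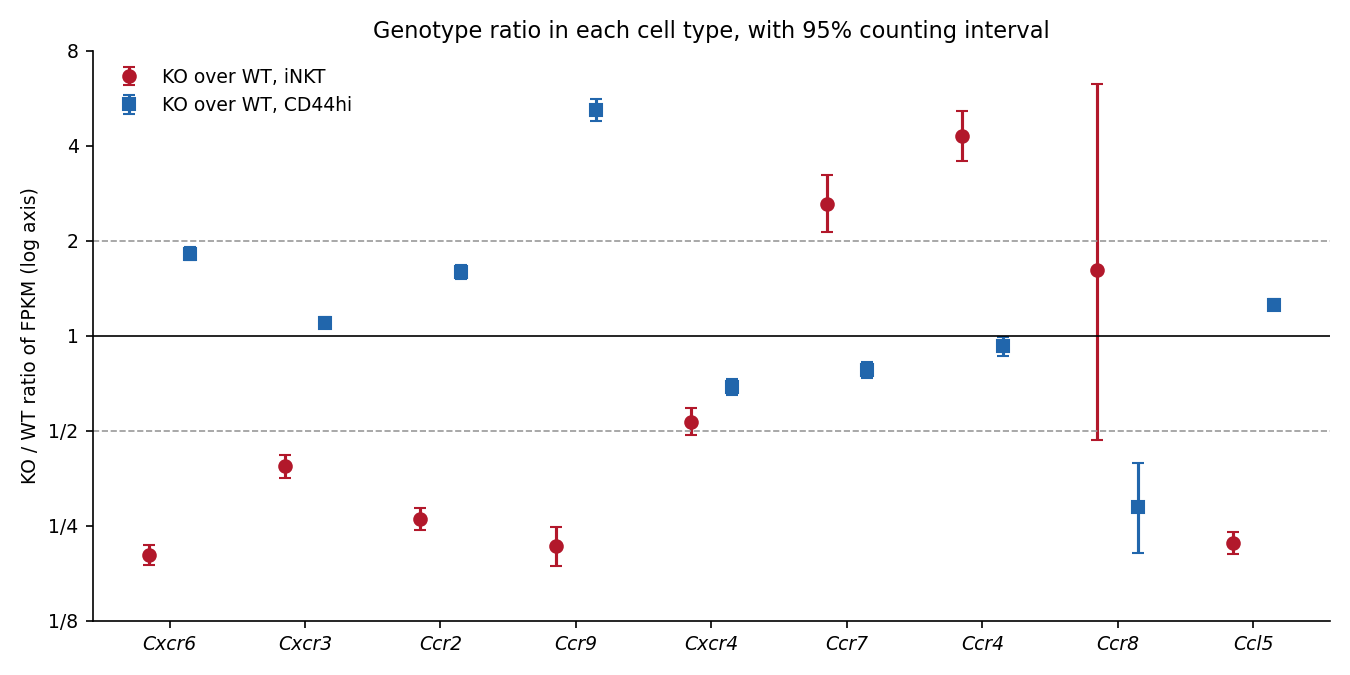
FPKM ratio of KO over WT for each member on a log axis, in iNKT and in CD44hi cells, with 95% exact counting intervals as bars (counting error only). In iNKT cells Cxcr6, Ccr9, Ccl5, Ccr2 and Cxcr3 lie below a ratio of 0.5 and Ccr4 and Ccr7 above 2, while in CD44hi cells only Ccr9 lies above 2 and only Ccr8 below 0.5.

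The genes beside Cxcr6 were compared in the same way. Within 500 kb of the Cxcr6 centre, 16 genes were described and 11 of them were measured in the iNKT pair, of which 9 were lower in KO iNKT, 6 of them by the call, with a median log2 difference of -1.07. These counts include the members Cxcr6, Ccr9 and Ccr2. Without them 8 genes were measured, of which 3 were called lower in KO iNKT and 1 higher, with a median of -0.45, against 3.35% lower and 6.08% higher over all genes. Xcr1, the receptor of XCL1, had 0.464 FPKM in KO iNKT and 2.28 FPKM in WT iNKT, 4.91-fold lower (2.52 to 10.5). The window also holds genes with other functions. Lars2, the mitochondrial leucyl-tRNA synthetase, had 13.6 FPKM in KO iNKT and 47.3 FPKM in WT iNKT, and Lztfl1, a ciliary transport regulator, had 4.23 FPKM in KO iNKT and 10.02 FPKM in WT iNKT. Limd1 and Sacm1l lay between Lars2 and Lztfl1 and differed little, with log2 differences of 0.13 and -0.17. The pseudogene Gm10052 was called higher, with 40.3 FPKM in KO iNKT and 15.7 FPKM in WT iNKT. Cxcr6 lies inside the gene Fyco1 on the opposite strand, and the library kit does not mark strand. Fyco1 itself had 5.36 FPKM in KO iNKT and 6.91 FPKM in WT iNKT, far below Cxcr6. In the longer gene models of GENCODE M21, Ccr9 (chr9:123678439-123784330) spans Lztfl1 and Gm10052 on the opposite strand, with no exon overlap. Whether fragments of Ccr9 were counted in these genes, or the reverse, was not tested. In the transcript models, 1.91% of 50-letter words in Ccr2 also occur in other genes, and 3.90% of those in Ccr9 occur in Gm17200.

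**Figure D3:**
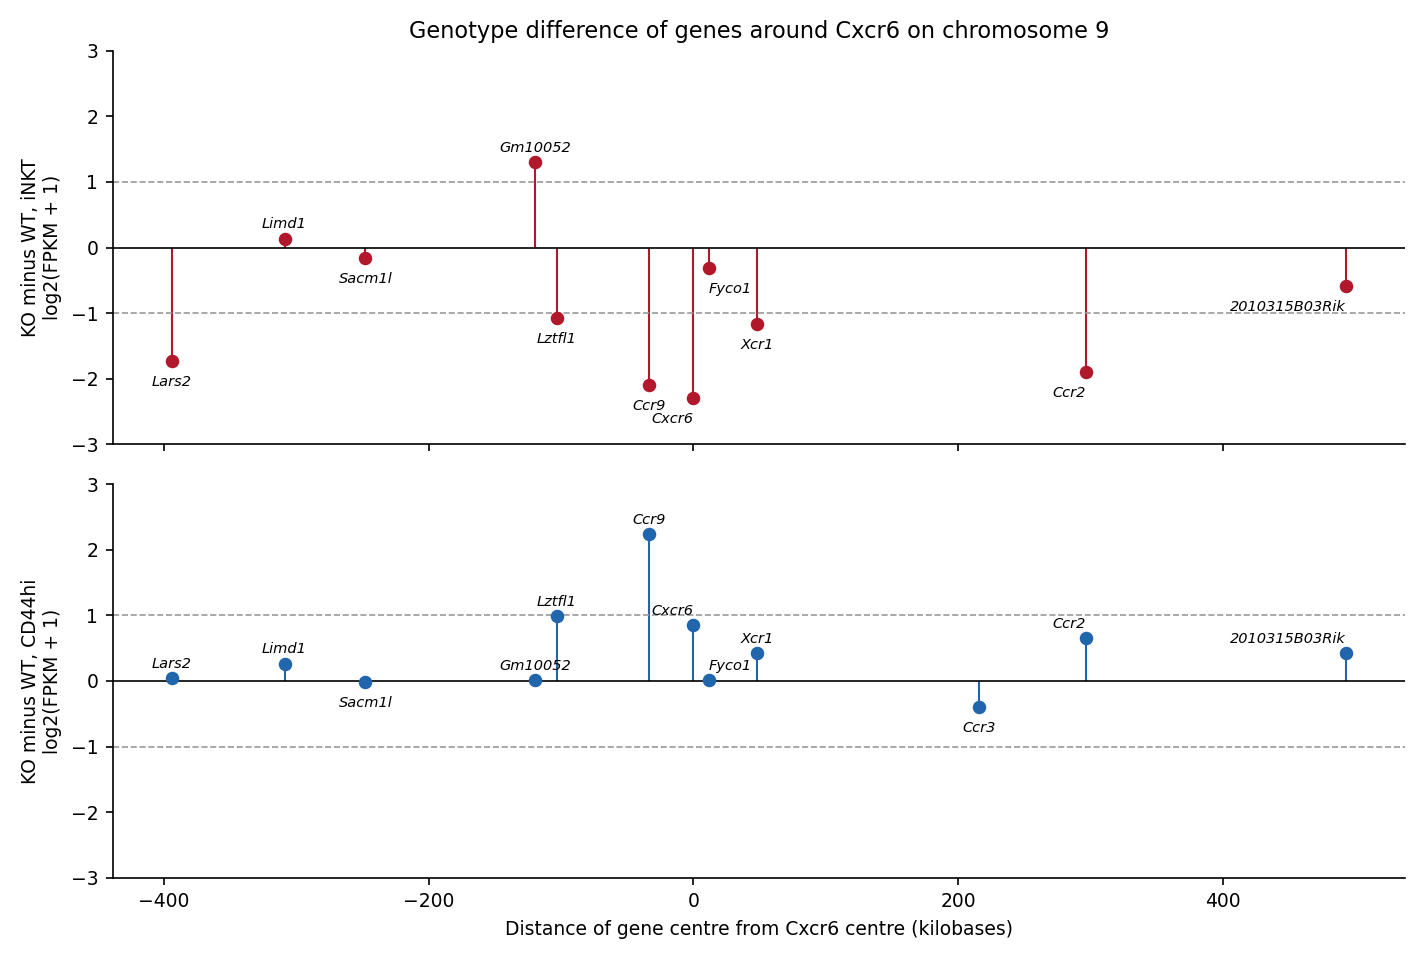
KO minus WT difference in log2(FPKM + 1) of the described genes measured within 500 kb of Cxcr6 on chromosome 9, against the distance of each gene's centre from that of Cxcr6, with iNKT cells above and CD44hi cells below and dashed lines at 2-fold. In iNKT cells 9 of 11 genes lie below 0, and in CD44hi cells 10 of 12 lie above 0.

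Between KO CD44hi and WT CD44hi, 1 member was called higher and 1 lower. Ccr9 was 5.18-fold higher in KO CD44hi and Ccr8 was 3.49-fold lower. Of the 11352 genes measured in this pair, 2.44% were called higher and 1.14% lower, 3.58% in all. The median log2 difference was 0.13 over the members and 0.01 over all measured genes.

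Ccr9 had 41.0 FPKM in KO CD44hi and 7.91 FPKM in WT CD44hi, with a counting interval of 4.79 to 5.61 for the ratio. In the mouse, plasmacytoid dendritic cells also carry CCR9, and 8 of the 10 markers of these cells were called higher in KO CD44hi, with none lower. Siglech, a lectin of plasmacytoid dendritic cells, had 75.7 FPKM in KO CD44hi and 11.1 FPKM in WT CD44hi, a ratio of 6.80 (6.17 to 7.51). Tcf4, their defining transcription factor, had 13.1 FPKM in KO CD44hi and 2.99 FPKM in WT CD44hi, a ratio of 4.38 (3.96 to 4.85). The part of plasmacytoid dendritic cells in the Ccr9 difference between CD44hi libraries was not tested. In the iNKT pair 3 of the 10 markers were measured, with 1 called higher in KO iNKT and 0 lower. The called marker was Pacsin1, at 29.9 FPKM in KO iNKT and 11.9 FPKM in WT iNKT. Irf8 was at 10.4 FPKM in KO iNKT and 6.79 FPKM in WT iNKT, and Bst2 at 78.7 FPKM in KO iNKT and 101 FPKM in WT iNKT. Siglech and Klk1 were at 0 in both, and Tcf4 was at 0.129 FPKM in KO iNKT and 0.140 FPKM in WT iNKT. Ccr9 had 8.81 FPKM in KO iNKT and 41.0 FPKM in WT iNKT, and the part of these cells there was not tested.

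Ccr8 had 1.91 FPKM in KO CD44hi and 6.67 FPKM in WT CD44hi, 3.49-fold lower (2.53 to 4.89). Of 10 regulatory T cell markers, 6 were called lower in KO CD44hi and none higher, and their sum was 185 FPKM in KO CD44hi and 441 FPKM in WT CD44hi. Foxp3, the transcription factor that defines regulatory T cells, had 13.4 FPKM in KO CD44hi and 53.8 FPKM in WT CD44hi, 4.01-fold lower (3.76 to 4.28). The part of regulatory T cells in the Ccr8 difference was not tested. Ccr4, which regulatory T cells also carry, had 29.1 FPKM in KO CD44hi and 31.4 FPKM in WT CD44hi, a ratio of 0.925 (0.865 to 0.989).

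**Figure D4:**
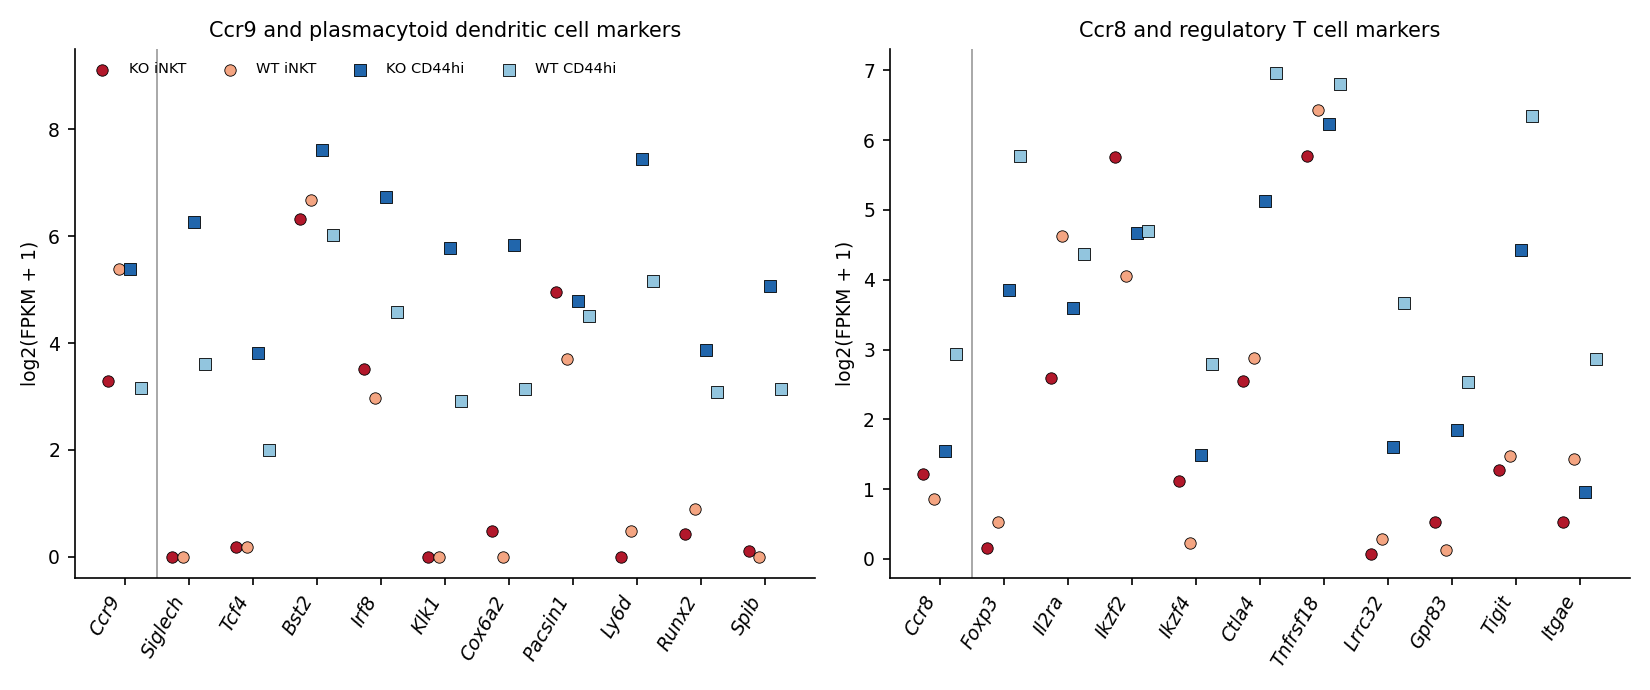
Level of Ccr9 beside 10 plasmacytoid dendritic cell markers (left) and of Ccr8 beside 10 regulatory T cell markers (right), as log2(FPKM + 1), 1 point per library. In CD44hi cells 8 of the 10 markers on the left were called higher in KO and 6 of the 10 on the right lower. In iNKT cells Siglech and Klk1 are at 0, and on the left only the markers Bst2, Irf8 and Pacsin1 reach 1 FPKM.

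The other 7 members stayed within 2-fold between the CD44hi libraries. Cxcr6 had 127 FPKM in KO CD44hi and 69.6 FPKM in WT CD44hi, a ratio of 1.82 (1.73 to 1.91). Ccr2 had 39.1 FPKM in KO CD44hi and 24.6 FPKM in WT CD44hi, a ratio of 1.59 (1.52 to 1.67). Monocytes carry Ccr2, and the 15 myeloid markers summed to 495 FPKM in KO CD44hi and 329 FPKM in WT CD44hi, with 2 of 13 measured called higher and 0 lower. The called markers were Ly6c2, at 161 FPKM in KO CD44hi and 48.9 FPKM in WT CD44hi, and Clec9a, at 7.87 FPKM in KO CD44hi and 1.56 FPKM in WT CD44hi. Cd68 was at 68.0 FPKM in KO CD44hi and 40.2 FPKM in WT CD44hi, Csf1r at 18.2 FPKM in KO CD44hi and 20.8 FPKM in WT CD44hi, and Lyz2 at 33.7 FPKM in KO CD44hi and 34.7 FPKM in WT CD44hi. The part of myeloid cells in the Ccr2 difference was not tested. Of 5 iNKT cell markers, 3 were called higher in KO CD44hi, among them Zbtb16, the lineage factor PLZF, at 41.4 FPKM in KO CD44hi and 4.30 FPKM in WT CD44hi. The other 2 were lower but within 2-fold. Il2rb was at 102 FPKM in KO CD44hi and 178 FPKM in WT CD44hi, and Slamf6 at 76.9 FPKM in KO CD44hi and 94.2 FPKM in WT CD44hi. Zbtb16 also differed by genotype in iNKT cells, with 63.1 FPKM in KO iNKT and 28.2 FPKM in WT iNKT. Whether iNKT cells contributed to the Cxcr6 and Ccr2 levels of the CD44hi libraries was not tested.

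Ccl5 and Cxcr3 differed by less, with ratios of 1.25 (1.20 to 1.31) and 1.10 (1.06 to 1.14) for KO CD44hi over WT CD44hi. Cxcr3 is X-linked, and the Y-linked gene Eif2s3y was at 22.7 FPKM in WT CD44hi and at 0 in the other 3 libraries, while the X-linked gene Xist was between 46.8 and 80.0 FPKM in all 4. The labels give no sex, and the part of this difference in the Cxcr3 values was not tested. WT CD44hi enters the CD44hi genotype pair, the WT pair and the differences between cell types for all members. There the part of sex was not tested either, and with 1 library per group it cannot be told apart. Ccr7 had a ratio of 0.780 (0.736 to 0.827) and Cxcr4 of 0.688 (0.648 to 0.730).

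Of the same 16 genes around Cxcr6, 12 were measured in the CD44hi pair, of which 10 were higher in KO CD44hi and 2 lower, with a median log2 difference of 0.34. Of these only Ccr9 passed the call. Without the 3 members 9 genes were measured, 7 higher in KO CD44hi and 2 lower, with none called and a median of 0.04. Lztfl1 had 8.35 FPKM in KO CD44hi and 3.71 FPKM in WT CD44hi, while Lars2 was nearly level at 9.46 FPKM in KO CD44hi and 9.18 FPKM in WT CD44hi.

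WT iNKT cells differed from WT CD44hi cells in 7 of the 9 members, 4 higher and 3 lower. Of the 11217 genes measured in this pair, 3.65% were called higher and 10.9% lower, 14.5% in all. Cxcr6 was 6.72-fold higher in WT iNKT (6.39 to 7.07), Ccr9 5.18-fold (4.71 to 5.70), Ccr2 4.30-fold (4.08 to 4.54) and Ccl5 3.03-fold (2.88 to 3.18). Ccr8 was 8.20-fold lower in WT iNKT (3.43 to 25.7), Ccr7 4.84-fold lower (4.05 to 5.84) and Ccr4 2.91-fold lower (2.46 to 3.47). Cxcr4 and Cxcr3 were 1.74-fold and 1.70-fold higher in WT iNKT, short of the call. Beside these values, 7 of the 10 regulatory T cell markers and 8 of the 10 plasmacytoid dendritic cell markers were called lower in WT iNKT and none higher. All 9 measured B cell markers and the 2 CD8 T cell markers were called lower too. Of 15 myeloid markers, 12 were called lower in WT iNKT and 3 higher. The part of all these cells in the member differences was not tested.

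Between KO iNKT and KO CD44hi, 1 member was called, Ccr9, which was 4.65-fold lower in KO iNKT (4.08 to 5.32). Of the 11469 genes measured in this pair, 9.06% were called lower and 3.02% higher, 12.1% in all. Of the 10 plasmacytoid dendritic cell markers, 9 were called lower in KO iNKT and 0 higher (median -4.30 on the log2 scale), and their part in the Ccr9 value was not tested. All 9 measured B cell markers and the 2 CD8 T cell markers were also called lower in KO iNKT. Of 15 myeloid markers 12 were called lower and 1 higher, and of 9 measured regulatory T cell markers 6 lower and 1 higher. The part of these cells in the member values was not tested. Cxcr6 was 1.34-fold lower in KO iNKT, Ccr2 1.41-fold, Ccl5 1.88-fold, Cxcr3 1.67-fold and Ccr7 1.44-fold lower, while Ccr4 was 1.59-fold and Cxcr4 1.35-fold higher. Ccr8 had 1.32 FPKM in KO iNKT and 1.91 FPKM in KO CD44hi, and its ratio of 0.690 (0.283 to 1.46) does not fix a direction. The median log2 difference over the members was -0.48 in this pair and 0.79 in the WT pair. Each of these pairs shares its libraries with the genotype comparisons, so the 4 sets of values are not independent.

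The genotype difference had opposite signs in the 2 cell types for 8 of the 9 members, as it had for 45.7% of the 10454 genes measured in both pairs. Of these 8, Ccr8 has no fixed direction in iNKT cells, given its counting interval of 0.467 to 6.29. In CD44hi cells the log2 differences of Ccr4 (-0.11) and Cxcr3 (0.13) were small. Both lay between the lower and upper quartiles of all measured genes (-0.14 and 0.19). Subtracting the KO minus WT log2 difference of CD44hi cells from that of iNKT cells gave -4.33 for Ccr9, -3.15 for Cxcr6, -2.54 for Ccr2, -2.50 for Ccl5 and -1.50 for Cxcr3. The same difference of differences was 2.11 for Ccr4, 1.75 for Ccr8 and 1.68 for Ccr7. Only Cxcr4 was lower in KO on both sides, with log2 differences of -0.90 in iNKT and -0.53 in CD44hi cells. All 8 of these values reach 2-fold, as do 10.2% of all genes measured in both pairs. With 1 library per group these differences were not tested.

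The receptor pool also differed in size and make-up. Summed over 23 chemokine receptors, the FPKM was 406 in KO iNKT and 1041 in WT iNKT, and 567 in KO CD44hi and 543 in WT CD44hi. Cxcr6 made up 23.3% of the sum in KO iNKT and 45.0% in WT iNKT, and 22.3% in KO CD44hi and 12.8% in WT CD44hi. The share of Ccr4 was 11.4% in KO iNKT and 1.04% in WT iNKT, and that of Ccr7 was 8.52% in KO iNKT and 1.27% in WT iNKT. Cxcr3 kept nearly the same share, 22.1% in KO iNKT and 22.4% in WT iNKT, although its level was lower in KO iNKT. The 8 member receptors together held 91.4% of the sum in KO iNKT and 96.1% in WT iNKT, and 86.1% in KO CD44hi and 76.3% in WT CD44hi. These are shares of FPKM, not of surface protein.

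**Figure D5:**
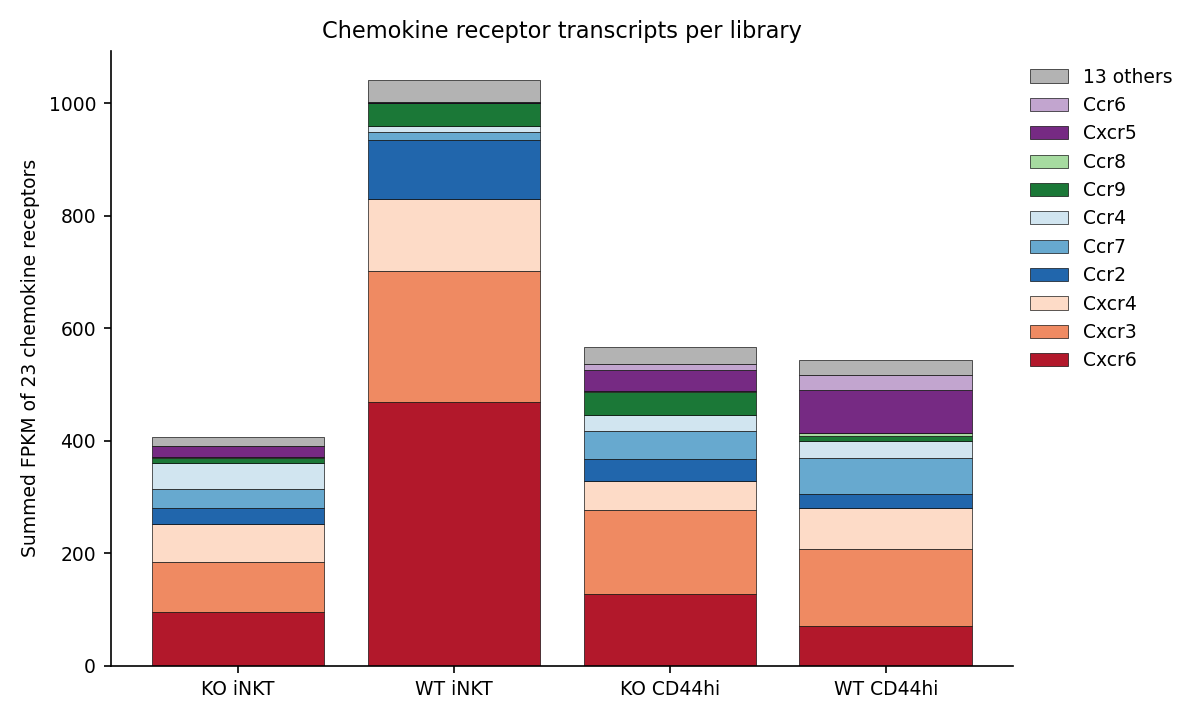
Summed FPKM of 23 chemokine receptors in each library, stacked by receptor. Cxcr6 takes 23.3% of the sum in KO iNKT, 45.0% in WT iNKT, 22.3% in KO CD44hi and 12.8% in WT CD44hi, and the WT iNKT sum of 1041 FPKM is the highest.

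Among 15 other chemokine receptors, 5 were measured in the iNKT pair. Of these, 1 was called higher in KO iNKT and 3 lower, against 6.08% and 3.35% of all measured genes. The higher one was Cxcr5, the CXCL13 receptor of B cell follicles, with 18.8 FPKM in KO iNKT and 0.963 FPKM in WT iNKT. Ccr10, the receptor of CCL27 and CCL28, had 0.942 FPKM in KO iNKT and 3.82 FPKM in WT iNKT, and Xcr1 was lower as given above. In the CD44hi pair 9 were measured, with 0 called higher and 2 lower, against 2.44% and 1.14% of all measured genes. Ccr6, the CCL20 receptor of type 17 cells, had 10.5 FPKM in KO CD44hi and 25.7 FPKM in WT CD44hi, and Cxcr5 had 36.5 FPKM in KO CD44hi and 75.9 FPKM in WT CD44hi.

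Of 15 ligands of the member receptors, 3 were measured in the iNKT pair, with 0 called higher and 1 lower. Over all measured genes these shares were 6.08% and 3.35%. In the CD44hi pair 6 ligands were measured, with none called, against 3.58% of all measured genes. The called ligand was Ccl1, which binds CCR8, listed at 0 in KO iNKT and at 1.29 FPKM in WT iNKT. Cxcl10, a ligand of CXCR3, was at 12.4 FPKM in KO iNKT and 8.86 FPKM in WT iNKT, and at 8.38 FPKM in KO CD44hi and 11.1 FPKM in WT CD44hi. Cxcl16, the ligand of CXCR6, was at 0.0798 FPKM in KO iNKT and 0 in WT iNKT, and at 4.79 FPKM in KO CD44hi and 4.40 FPKM in WT CD44hi. Of 4 other T cell chemokines, 1 was measured in the iNKT pair and 3 in the CD44hi pair, where none was called. Xcl1 (lymphotactin) was called lower in KO iNKT, with 37.2 FPKM in KO iNKT and 150 FPKM in WT iNKT, 4.03-fold lower (3.23 to 5.06). Ccl3 and Ccl4 were under 1 FPKM in both iNKT libraries and not measured there.

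Downstream of the receptors, 18 signalling genes were measured in both genotype pairs. In the iNKT pair 1 was called lower in KO iNKT and 0 higher, against 3.35% and 6.08% of all measured genes. In the CD44hi pair none was called, against 3.58% of all measured genes. The called gene was Pik3r5, a regulatory subunit of the PI3-kinase gamma that chemokine receptors activate, with 11.5 FPKM in KO iNKT and 41.2 FPKM in WT iNKT, 3.60-fold lower (3.13 to 4.15). Dock2, a Rac activator needed for lymphocyte migration, had 88.5 FPKM in KO iNKT and 131 FPKM in WT iNKT. Of 12 desensitisation genes in the iNKT pair, 2 were called higher and 1 lower, against 6.08% and 3.35% of all measured genes. Rgs16 and Rgs10, which shorten G protein signals, were at 4.54 and 92.6 FPKM in KO iNKT and at 0.636 and 42.4 FPKM in WT iNKT, and Rgs1 was at 62.0 FPKM in KO iNKT and 125 FPKM in WT iNKT. In the CD44hi pair 13 of these genes were measured, with 0 called higher and 1 lower, against 2.44% and 1.14% of all measured genes. The lower one was Rgs16, at 3.99 FPKM in KO CD44hi and 19.3 FPKM in WT CD44hi.

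For 4 members the genes with the most similar pattern over the 4 libraries were listed among 8306 genes, by Euclidean distance between log2(FPKM + 1) values centred on each gene's mean. Nearest to Ccl5 were Xcl1 at 0.203, Acoxl at 0.247 and Tbx21 at 0.306. Nearest to Cxcr6 were Prrt1 at 0.317, Arl4d at 0.318 and Atp8a2 at 0.382. Ccr9 had no neighbour as close, with Ly6g5b at 0.571, Plac8 at 0.658 and Tlr12 at 0.774. Nearest to Ccr7 were Anxa5 at 0.128, Inf2 at 0.252 and Myo1c at 0.261. Anxa5 had 23.5 FPKM in KO iNKT, 8.15 FPKM in WT iNKT, 34.6 FPKM in KO CD44hi and 46.3 FPKM in WT CD44hi. A distance over 4 libraries describes them only.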

How the data were processed

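RNA was measured in 4 libraries, 1 per group, so no replicate spread, standard error or p-value could be computed. Per the labels' protocols, flow sorting used CD1d tetramers and T cell receptor beta staining for iNKT cells, and staining of that receptor, CD44 and CD4 for CD44hi cells. Libraries were made with the TruSeq kit v2. The authors deposited FPKM per gene symbol, per the file headers. Cufflinks 2.0.2, TopHat 1.3.2 and Bowtie2 2.0.0 are listed with mm10 in the submitters' processing notes, with no roles, and the gene annotation and filters are not given in the sources used here. Rows sharing a symbol (240 symbols) were summed, 26 symbols turned into dates or numbers and 781 small RNA symbols were left out, and 22477 symbols remained. Depth was estimated from the FPKM step worth 1 fragment in genes of at least 2500 bases, with lengths from GENCODE M21, so intervals rest on estimated fragments. Differences are of log2(FPKM + 1), which understates those of low genes.

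Members and gene lists were chosen with earlier results of these data known. All members were named in all 4 comparisons, with up to 4 measured genes per other list by size of difference, the 3 nearest genes of Ccl5, Cxcr6, Ccr9 and Ccr7 among genes at 5 FPKM or more, and Ezh2. Genes outside this rule (among them Lars2, Limd1, Sacm1l, Gm10052, Tcf4, Lyz2, Ncr1, Xist and Eif2s3y) were named after their values were seen. Results on some genes are not reported here. Alternatives were other pseudocounts, filters, scalings and a treatment of repeated symbols. The scripts were tested on simulated data and used Python 3.11.15, pandas 2.3.3, numpy 2.4.6 and scipy 1.17.1.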

Additional observations from a re-analysis of the deposited data

Results flagged for a closer look

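For 8 members the FPKM of the KO library lay on opposite sides of WT in iNKT and in CD44hi cells, though for Ccr8 the counting interval in iNKT cells (0.467 to 6.29) does not fix a side. For Ccr4 and Cxcr3 the CD44hi log2 differences of -0.11 and 0.13 lay between the quartiles of all measured genes (-0.14 and 0.19). Of all genes measured in both pairs, 45.7% had opposite signs. With 1 library per group none of these differences between cell types was tested. The values are the KO minus WT difference in log2(FPKM + 1) of iNKT cells less that of CD44hi cells. They were -4.33 for Ccr9, -3.15 for Cxcr6, -2.54 for Ccr2, -2.50 for Ccl5 and -1.50 for Cxcr3, where KO iNKT was below WT iNKT and KO CD44hi above WT CD44hi. They were 2.11 for Ccr4, 1.75 for Ccr8 and 1.68 for Ccr7, where KO iNKT was above WT iNKT and KO CD44hi below WT CD44hi. The Ccr8 value rests on about 8.09 fragments in KO iNKT and 4.63 in WT iNKT.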

How the results depend on the processing

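Each member value was recomputed under up to 7 alternatives, and of 313 values none changed sign and 2 crossed 2-fold, both of Ccr8 with a pseudocount of 5 FPKM. Its KO minus WT log2 difference in CD44hi cells became -0.76 in place of -1.40, which left 0 members called lower in that pair, and its difference between cell types became 0.88 in place of 1.75. Counts over all genes moved more. With a pseudocount of 5 FPKM the genes called higher and lower numbered 198 and 173 for KO iNKT over WT iNKT (658 and 362 as reported), 88 and 35 for KO CD44hi over WT CD44hi (277 and 129), 194 and 454 for WT iNKT over WT CD44hi (409 and 1223), and 121 and 393 for KO iNKT over KO CD44hi (346 and 1039). With a pseudocount of 0.1 FPKM, 556 genes were lower in KO iNKT than in WT iNKT, 491 were higher and 223 lower in KO CD44hi than in WT CD44hi, and 584 were higher in KO iNKT than in KO CD44hi. With a measured minimum of 5 FPKM, 391 genes were higher in KO iNKT than in WT iNKT, 165 higher in KO CD44hi than in WT CD44hi, 694 lower in WT iNKT than in WT CD44hi, and 577 lower in KO iNKT than in KO CD44hi. The cause of these moves lies in the construction of the settings for the larger pseudocount, which shrinks low genes, and for the higher minimum, which tests fewer genes. Transcript lengths matched to RefSeq, an alternative chosen after seeing the data, widened the intervals by up to 1.39 times, and none of 36 intervals gained or lost a ratio of 1. No paired analysis was possible because each group has 1 library, and for the same reason no library could be left out. Low depth limits Ccr8 in iNKT cells most.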

Other observations

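Most homing partners of the receptors stayed within 2-fold between genotypes. Of 12 measured in the iNKT pair, 2 were called higher in KO iNKT and 1 lower, with a median log2 difference of -0.08, against 6.08% and 3.35% of all measured genes. The integrin genes Itga4 and Itgb1, which together encode VLA-4, were at 49.4 and 163 FPKM in KO iNKT and at 10.9 and 80.0 FPKM in WT iNKT. Selplg, the selectin ligand PSGL-1, was at 94.5 FPKM in KO iNKT and 226 FPKM in WT iNKT. Of 12 measured in the CD44hi pair, 0 were called higher in KO CD44hi and 2 lower, with a median of -0.18, against 2.44% and 1.14% of all measured genes. The lower genes were Itgb1 at 93.0 FPKM in KO CD44hi and 214 FPKM in WT CD44hi, and Itgae, the integrin alpha chain CD103, at 0.949 FPKM in KO CD44hi and 6.25 FPKM in WT CD44hi.

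Of 12 transcription factors known from T cell trafficking, 3 were called higher in KO iNKT than in WT iNKT and 2 lower. Of all genes measured in this pair, 6.08% were called higher and 3.35% lower. Tbx21, the type 1 factor T-bet, was at 19.5 FPKM in KO iNKT and 70.4 FPKM in WT iNKT, and Runx3 at 10.7 FPKM in KO iNKT and 24.8 FPKM in WT iNKT. Zbtb16 was at 63.1 FPKM in KO iNKT and 28.2 FPKM in WT iNKT, and Eomes at 3.90 FPKM in KO iNKT and listed at 0 in WT iNKT. Batf, at 76.0 FPKM in KO iNKT and 36.5 FPKM in WT iNKT, was also called higher. In the CD44hi pair 1 of 12 was called higher, Zbtb16, and 0 lower, against 2.44% and 1.14% of all measured genes.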
